A study of Mus musculus with 6 samples.

Results

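The Sprouty, SPRED and ETV genes make up 10 of the 39179 genes listed for Ocy454 cells, a mouse cell line with properties of osteocytes. They are Spry1, Spry2, Spry3 and Spry4 (Sprouty), Spred1, Spred2 and Spred3 (SPRED), and Etv1, Etv4 and Etv5 (ETV, the PEA3 subfamily of ETS transcription factors). The members were taken by gene symbol, and the family was chosen from earlier results of these data, in which Spry4 was among the genes that fell most with YKL-05-093. Of the 10 genes, 7 passed the filter of at least 0.5 RPKM (reads per kilobase, divided by library size) in at least 2 of the 6 libraries, as did 14264 of all genes. Spry3, Spred3 and Etv1 did not.

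The cells were grown to confluence at 33 °C, kept at 37 °C for 14 days, given fresh medium 24 h before collection, and then treated for 4 h. Of the 3 groups, one received vehicle (PBS with HCl), one PTH at 1 nM, and one YKL-05-093, which inhibits salt-inducible kinases (SIKs), at 0.5 µM, with 2 libraries in each. The design asks how far the response to a SIK inhibitor resembles the response to PTH, a hormone that raises cAMP in osteocytes. All groups come from 1 cell line, and the study states that YKL-05-093 also acts on other kinases in vitro. Its supplement says that compounds for cell work were kept in DMSO, while the labels give PBS with HCl as the vehicle, and whether the vehicle cells received DMSO was not given in the sources used here. The labels do not say whether the libraries of a group came from separate cultures, so the p-values measure the spread between these libraries, which may be technical.

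The libraries held between 17505798 and 27983585 reads, and mitochondrial genes took 11.65% to 16.54% of them. The vehicle libraries stood further apart than the others, with a median absolute difference of 0.333 on the log2 scale between replicates, against 0.108 for PTH and 0.103 for YKL-05-093. Of 15 osteoblast and osteocyte markers, 11 reached 0.5 RPKM on average in vehicle, 11 with PTH and 10 with YKL-05-093, while the mature osteocyte markers Sost, Fgf23, Mepe and Dkk1 were at or near 0. The summed level of this list was 1078 to 1226 RPKM in vehicle, 1348 to 1609 with PTH and 1311 to 1628 with YKL-05-093, but its members did not move together. Sp7, an osteoblast transcription factor, was at 46.0 and 45.5 RPKM in vehicle, 12.2 and 11.1 with PTH, and 22.4 and 29.6 with YKL-05-093, and Runx2, another, at 19.5 and 13.0, 7.87 and 7.02, and 11.6 and 12.6. Others lay above vehicle with PTH. Pdpn was at 53.1 and 71.3 RPKM in vehicle, 171 and 163 with PTH, and 95.8 and 93.1 with YKL-05-093. Bglap was at 6.61 and 11.5, 27.1 and 25.3, and 11.9 and 11.4 RPKM. Of other cell types, the 8 osteoclast and macrophage markers summed to 78.2 to 90.3 RPKM in vehicle, 91.7 to 99.2 with PTH and 95.6 to 97.0 with YKL-05-093, nearly all of it Ctsk, with Ptprc at or near 0. The 4 endothelial markers summed to 0.724 to 1.14 RPKM in vehicle, 1.14 to 1.44 with PTH and 1.95 to 2.17 with YKL-05-093. Of these, Kdr was at 0.582 and 0.476, 0.812 and 1.06, and 1.72 and 1.43 RPKM, and Cdh5 at 0. The 4 chondrocyte markers summed to 1.83 to 2.40 RPKM in vehicle, 3.29 to 3.33 with PTH and at least 3.35 with YKL-05-093. The 4 adipocyte markers lay between 1.10 and 2.32 RPKM in sum and the 4 muscle markers between 0.481 and 0.663, with Lep and Myod1 at 0. The part of these markers in the results below was not tested. In bulk RNA, less RNA per cell and fewer cells with that RNA cannot be told apart.

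Receptor tyrosine kinases, such as those for fibroblast growth factors, switch on RAS, which activates the kinases RAF, MEK and ERK in turn. Sprouty and SPRED proteins restrain this cascade: Sproutys act between receptor and RAS or RAF, and SPREDs bring the RAS-inactivating protein neurofibromin to the plasma membrane. Their genes are themselves transcribed when ERK is active, which closes a negative feedback loop. Etv1, Etv4 and Etv5 are transcription factors induced by the same cascade, and so the RNAs of all these families are widely used as a readout of ERK output. In bone, fibroblast growth factor and ERK signalling regulates the growth and differentiation of osteoblast lineage cells.

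Promoter sequences are shown so that members with different values can be compared near their start of transcription. RefSeq windows of GRCm38.p6, from 250 bases before to 50 bases after a start, were on hand for 7 of the 10 members, in 9 windows. Spry3, Spry4 and Etv4 had no entry. Printed here are 4 windows, for the called members with an entry (Spry1, Etv5 and Spred2) and for Spry2, the Sprouty that was called in no comparison. Capitals mark, on either strand, the ETS core CCGGAA, the short CRE motif TGACG (CRE: the cAMP response element), the AP-1 site TGANTCA, the GC box GGGCGG and the TATA box TATAAA.
Spry1, chr3:37639697-37639996, plus strand: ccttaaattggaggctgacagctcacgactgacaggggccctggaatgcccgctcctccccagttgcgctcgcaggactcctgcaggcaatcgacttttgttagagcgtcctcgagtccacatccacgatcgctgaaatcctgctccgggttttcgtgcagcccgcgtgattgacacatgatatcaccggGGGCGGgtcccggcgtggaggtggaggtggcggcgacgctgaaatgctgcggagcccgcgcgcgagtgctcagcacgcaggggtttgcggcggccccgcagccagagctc
Spry2, chr14:105896770-105897069, minus strand: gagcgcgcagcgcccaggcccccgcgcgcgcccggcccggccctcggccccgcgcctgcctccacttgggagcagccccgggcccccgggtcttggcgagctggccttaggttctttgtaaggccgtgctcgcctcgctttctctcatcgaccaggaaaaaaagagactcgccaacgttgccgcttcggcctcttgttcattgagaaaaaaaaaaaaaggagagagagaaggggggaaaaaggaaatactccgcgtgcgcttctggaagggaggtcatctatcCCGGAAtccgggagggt
Spred2, chr11:19924192-19924491, plus strand: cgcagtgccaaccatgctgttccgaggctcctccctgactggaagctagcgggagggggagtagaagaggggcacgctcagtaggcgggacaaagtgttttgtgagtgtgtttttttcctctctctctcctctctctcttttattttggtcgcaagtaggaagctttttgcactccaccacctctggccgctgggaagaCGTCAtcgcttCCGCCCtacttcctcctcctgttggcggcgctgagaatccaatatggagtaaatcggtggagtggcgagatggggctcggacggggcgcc
Etv5, chr16:22439521-22439820, minus strand: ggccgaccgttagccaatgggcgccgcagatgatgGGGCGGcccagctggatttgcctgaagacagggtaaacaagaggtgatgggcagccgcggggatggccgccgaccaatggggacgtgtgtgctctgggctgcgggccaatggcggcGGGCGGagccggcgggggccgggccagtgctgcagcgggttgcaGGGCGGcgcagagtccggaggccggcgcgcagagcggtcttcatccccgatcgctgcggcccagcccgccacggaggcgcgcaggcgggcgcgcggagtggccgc
The ETS core was found in Spry2 only, 34 bases after the start, while 14.9% of all 32851 promoter windows hold it. The short CRE motif was found in Spred2 only, on the other strand at -51 (20.8% of all windows), and the full CRE TGACGTCA, which contains the short one, was in 0 of the 7 members (1.79% of all). The AP-1 site was also in 0 of the 7 members (7.81% of all). GC boxes occurred in 5 of the 7 (Spry1, Spred1, Spred2, Spred3 and Etv5, the last in its printed window only) and in 35.7% of all windows. A TATA box occurred only in 1 window of Etv1 (13.6%). These counts are of genes, of which Etv1 and Etv5 have 2 windows, while the shares are of windows. The GC content was above the median of all windows (52.7%) in those of Spry1, Spry2, Spred1, Spred2, Spred3 and Etv5, where it reached 74.0%, and below it in both of Etv1 (48.7% and 44.0%). Such matches describe letters in a short window and do not show where a factor binds.

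In vehicle, Spred1 was the most abundant of the 10 genes by level per length, at 24.5 and 17.4 RPKM in its libraries. Spry1 (4.98 ± 0.166, mean ± SD with n = 2 here and below), Spry2 (4.45 ± 0.300) and Etv4 (4.43 ± 0.591) followed and did not differ from each other beyond the larger SD of each pair, apart from Spry1 against Spry2, whose libraries did not overlap. The libraries of Spry1 (lowest 4.86 RPKM) and Etv4 (highest 4.84 RPKM) did not overlap either, by a small margin. Spred2 came next with 3.15 ± 0.559 RPKM, then Etv5 with 2.40 ± 0.000779, Spry4 with 1.08 ± 0.0877, Spred3, Etv1 and Spry3. With PTH, Spry1 (1.89 and 1.52 RPKM) ranked below Etv5 (2.54 and 2.31 RPKM), without overlap. With YKL-05-093, Spry1 (1.19 ± 0.076) overlapped with Spred2 (1.63 ± 0.584), while Etv5 (0.668 ± 0.0159) and Spry4 (0.101 ± 0.0242) were the lowest of the 7, as in vehicle.

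**Figure D1:**
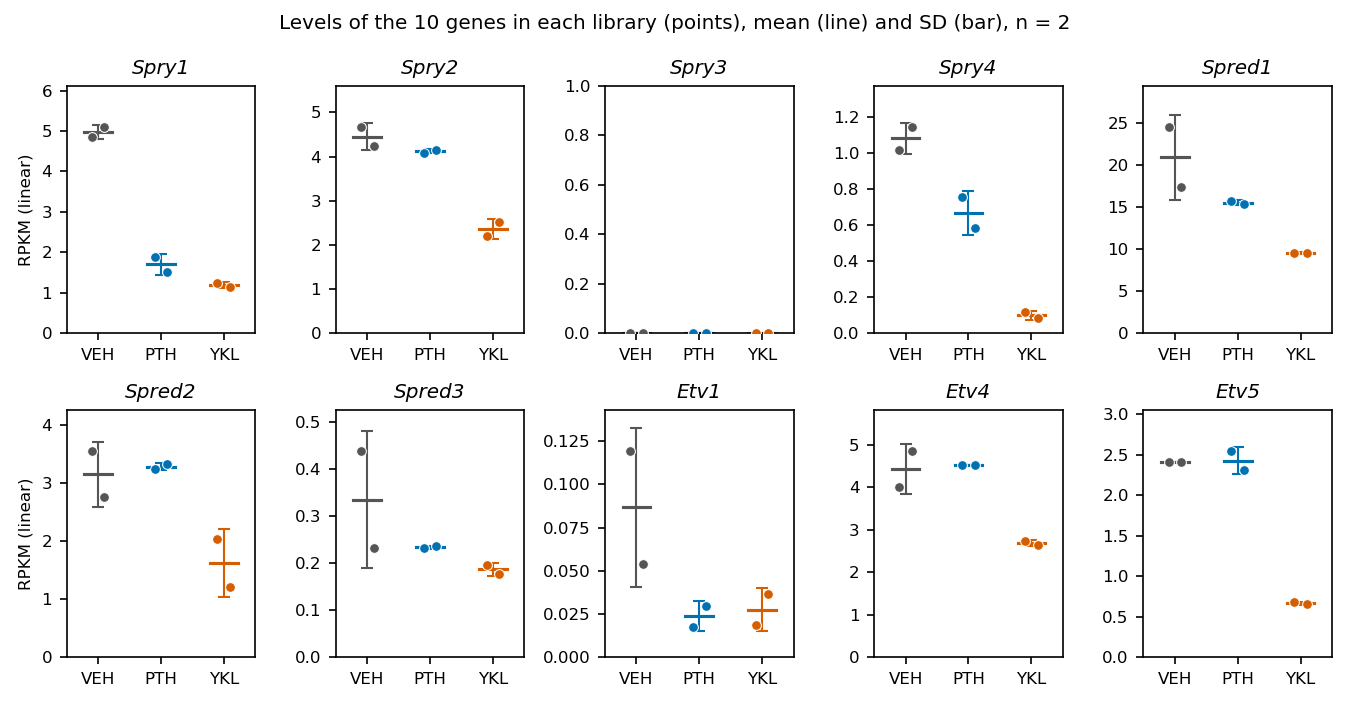
RPKM of each of the 10 genes (linear axes from 0, a separate scale for each gene) in the vehicle (VEH), PTH and YKL-05-093 (YKL) libraries; points are libraries, lines the mean and bars the SD of 2 libraries. The YKL-05-093 points lie below the vehicle points for all 7 genes past the filter, while PTH points lie near vehicle for Spry2, Spred2, Etv4 and Etv5 and far below it for Spry1.

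Each treatment was set against vehicle and then the treatments against each other, on log2(RPKM + 0.1) with limma. Apart from Spry4, the genes tested rest on 71 to 3355 reads in each library. Because 0.1 is added, fold changes of low genes such as Spry4 are understated. Called genes had an adjusted p under 0.05 and changed over 2-fold. PTH lowered 1 of the 7 genes tested, Spry1, where 0.813% of all 14261 genes tested were called lower. With YKL-05-093, 3 of the 7 were called lower, namely Spry1, Spry4 and Etv5, beside 0.274% of the 14255 genes tested, and the libraries were below those of vehicle without overlap for 7 of 7, beside 22.1%. As the family was chosen from this contrast, these counts are a description and nothing is read from them. The calls of Spry1, Spry4 and Etv5 were lost without vehicle library 1, and those of Spry1 and Etv5 also without YKL-05-093 library 1. All kept their direction. Directly compared, PTH left 3 of the 7 called higher than YKL-05-093, namely Spry4, Spred2 and Etv5, where 0.737% of all genes were called higher. By adjusted p alone there were 6 of the 7, where 4.85% of all genes passed. The direct comparison uses the same YKL-05-093 libraries as the contrast that the choice was made from. Its direction, calls and p-values for the members are thus not independent of that choice, for Spry4 least of all. The median log2 fold change of the 7 genes was -0.11 for PTH (-0.03 over all genes), -1.10 for YKL-05-093 (-0.04) and 0.78 for PTH against YKL-05-093 (0.01).

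**Figure D2:**
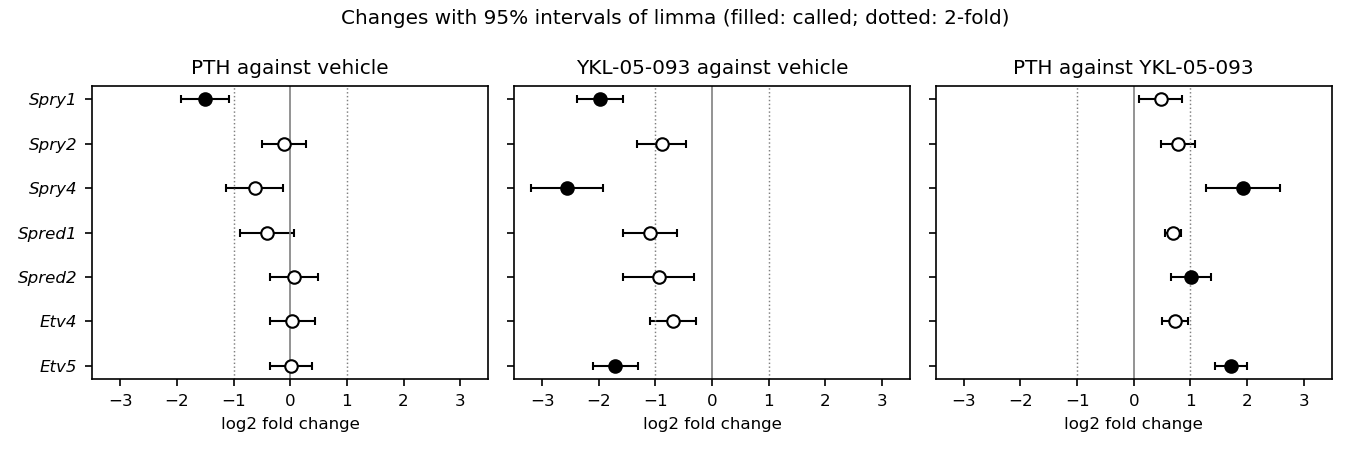
Log2 fold changes of the 7 genes past the filter in the 3 comparisons, with 95% intervals from limma; filled points are called, and dotted lines mark a 2-fold change. Only Spry1 is called for PTH, at -1.50, whereas Etv4, Etv5, Spred2 and Spry2 lie within 0.11 of 0; all 7 lie below 0 for YKL-05-093 and above 0 in the direct comparison.

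Spry1 was called lower with PTH and with YKL-05-093. Both comparisons use the same vehicle libraries, so these calls are not independent of each other. Spry1 (ENSMUSG00000037211; GRCm38 chromosome 3, 37639947 to 37644598, plus strand) encodes a Sprouty that restrains growth factor signalling to RAS. It was at 4.86 and 5.09 RPKM in vehicle, 1.89 and 1.52 with PTH, and 1.24 and 1.14 with YKL-05-093. Both treatments lie far below vehicle, and PTH lies above YKL-05-093, with no overlap between any groups. The log2 fold change with PTH was -1.50 (SE 0.18), with an adjusted p of 0.00901 in limma. Without either of the PTH libraries the value was -1.65 or -1.35 but the call was lost (adjusted p = 0.147 and 0.304). With YKL-05-093 the log2 fold change was -1.98 (SE 0.17). The treatments differed by 0.48 (95% interval 0.10 to 0.85), and this difference missed the threshold (limma, adjusted p = 0.114). The exons of the gene model Gm42922 overlap those of Spry1 by 710 bases on the opposite strand. Whether strand was used in counting is not stated, so reads of the 2 genes may not be told apart.

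Spry2, a closely related Sprouty, was not lowered by PTH past the test. Spry2 (ENSMUSG00000022114; chromosome 14, 105891947 to 105896819, minus strand) was at 4.66 and 4.24 RPKM in vehicle, 4.09 and 4.15 with PTH, and 2.20 and 2.52 with YKL-05-093. The PTH libraries lie just under vehicle and the YKL-05-093 libraries well under both. With PTH the log2 fold change was -0.11 (95% interval -0.50 to 0.28, limma adjusted p = 0.845), and with YKL-05-093 it was -0.89 (SE 0.18). PTH stood 0.78 (SE 0.15) above YKL-05-093 on the log2 scale, with an adjusted p of 0.00178 in limma but less than a 2-fold change.

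Spry4 had the largest fold change of the family with YKL-05-093. Spry4 (ENSMUSG00000024427; chromosome 18, 38586247 to 38601415, minus strand) encodes a Sprouty that also blocks the activation of RAS and RAF. Its level was 1.02 and 1.15 RPKM in vehicle, 0.757 and 0.583 with PTH, and 0.118 and 0.0841 with YKL-05-093. The 3 groups did not overlap, with PTH between the others. These levels rest on 82 and 147 reads in vehicle, 75 and 51 with PTH, and only 11 and 8 with YKL-05-093. Per library total, the summed reads with YKL-05-093 were 0.0920 of those in vehicle (exact 95% interval 0.0544 to 0.147, counting error only), while the log2 fold change with 0.1 added was -2.56 (SE 0.27). With PTH it was -0.63 (95% interval -1.13 to -0.13), and the test over all genes was not passed (limma, adjusted p = 0.257). PTH stood 1.93 (SE 0.31) above YKL-05-093 and was called higher. As the choice of the family rests on the low YKL-05-093 values of Spry4, this call is a description and no test. It was lost without either PTH library, where no gene at all was called in this comparison, and without YKL-05-093 library 2. The log2 differences were 1.77 to 2.10 in all leave-outs. The Spry4 call was also lost with no filter (limma, adjusted p = 0.0535) and with the variance trend on the mean value (0.131). With a pseudocount of 1 it was lost too, and the difference was 0.60.

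Spry3 was listed at 0 RPKM in all 6 libraries, with 0 reads, so at most 3 reads in each library are allowed by counting error. It was the only member for which no position was found in GENCODE M21. Whether its reads could be mapped and counted was not tested. The summed level of the 4 Sproutys was 10.5 ± 0.0465 RPKM in vehicle, 6.49 ± 0.343 with PTH and 3.65 ± 0.127 with YKL-05-093, which is 61.8% and 34.8% of vehicle. Spry1 made up 46.1% and 48.6% of this sum in the vehicle libraries but 28.1% and 24.2% with PTH. Spry2 made up 44.2% and 40.4% in vehicle, 60.7% and 66.4% with PTH, and 61.8% and 67.4% with YKL-05-093. In these cells, Sprouty RNA after either treatment was thus mostly Spry2.

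**Figure D3:**
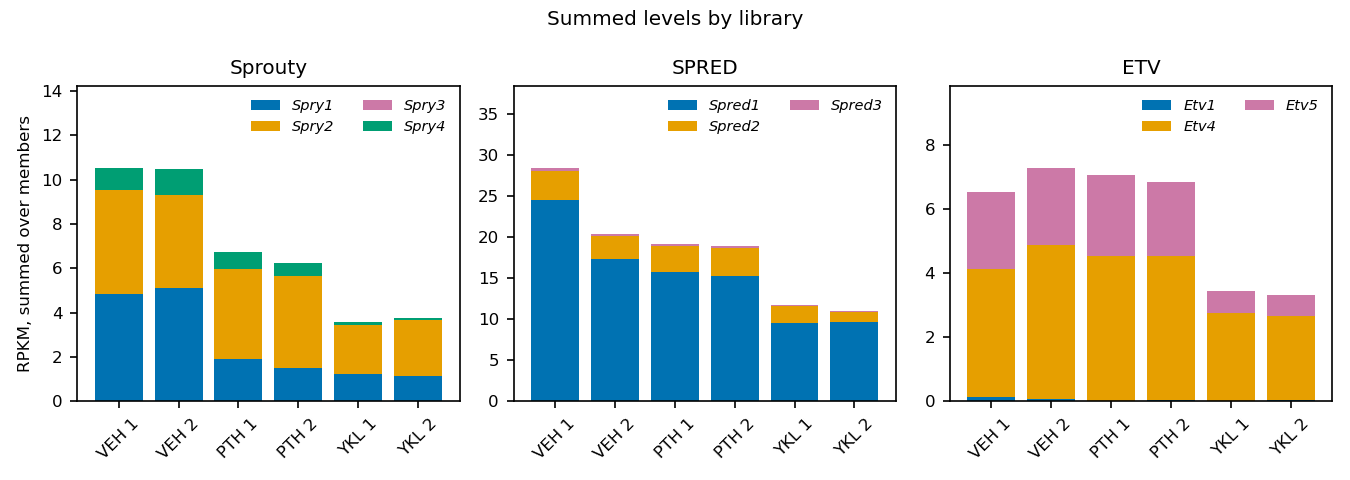
RPKM summed over the members of each family (stacked bars from 0, separate scales) in each of the 6 libraries; colours are members. The Sprouty bar shrinks to 61.8% of vehicle with PTH mainly in its Spry1 part, the ETV bar is at 101% with PTH and 48.9% with YKL-05-093, and Spred1 fills most of each SPRED bar.

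Among the SPREDs, Spred1 carried most of the RNA. Spred1 (ENSMUSG00000027351; chromosome 2, 117121374 to 117182279, plus strand) encodes a binding partner of neurofibromin. It was at 24.5 and 17.4 RPKM in vehicle, 15.8 and 15.3 with PTH, and 9.55 and 9.61 with YKL-05-093. The vehicle libraries differ from each other by more than vehicle library 2 differs from PTH, and the YKL-05-093 libraries are below all others. With PTH the log2 fold change was -0.41 (95% interval -0.89 to 0.07, limma adjusted p = 0.473), and with YKL-05-093 it was -1.10 (SE 0.20), over 2-fold but not called. The vehicle library used decides these values. Without vehicle library 1 they were -0.16 and -0.85, and without vehicle library 2 they were -0.65 and -1.35, of which only the last was called. PTH stood 0.69 (SE 0.07) above YKL-05-093, with an adjusted p of 2.52e-06 in limma and less than a 2-fold change.

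Spred2 lay at the vehicle level with PTH and below it with YKL-05-093. Spred2 (ENSMUSG00000045671; chromosome 11, 19924375 to 20024026, plus strand), a paralogue of Spred1 that also inhibits RAS signalling to ERK, was at 3.54 and 2.75 RPKM in vehicle, 3.23 and 3.32 with PTH, and 2.04 and 1.21 with YKL-05-093. The PTH libraries lie between the vehicle libraries, and the YKL-05-093 libraries lie below both groups but far apart. The log2 fold change was 0.07 with PTH (95% interval -0.35 to 0.49, limma adjusted p = 0.92) and -0.94 with YKL-05-093 (SE 0.26). PTH stood 1.01 (SE 0.17) above YKL-05-093 (limma, adjusted p = 0.000665), just past the 2-fold limit. Without YKL-05-093 library 2 this was 0.66 and not called. Without either PTH library, where no gene at all was called in this comparison, it was 1.03 and 0.99. The Spred2 call was lost in 8 of 14 alternatives in all. The others were median-ratio scaling (1.00) and a pseudocount of 1 (0.72), both under 2-fold, and no filter, 1 fit of all libraries and the variance trend on the mean value (limma, adjusted p = 0.215, 0.129 and 0.109).

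Spred3 (ENSMUSG00000037239; chromosome 7, 29158829 to 29170411, minus strand), the least abundant SPRED, was under the filter, at 0.439 and 0.233 RPKM in vehicle, 0.232 and 0.236 with PTH, and 0.197 and 0.177 with YKL-05-093. Vehicle library 1 is above all others, and vehicle library 2 is at the PTH level. The vehicle values rest on 46 and 39 reads. Per library total, its summed reads with PTH were 0.750 of vehicle (exact 95% interval 0.526 to 1.06) and with YKL-05-093 0.60 (0.410 to 0.869), counting error only. Exons of Ggn overlap those of Spred3 by 202 bases on the opposite strand, and Ggn itself was at 0.440 to 0.701 RPKM. The SPRED sum was 24.4 ± 5.74 RPKM in vehicle, 19.1 ± 0.231 with PTH (78.0%) and 11.4 ± 0.555 with YKL-05-093 (46.6%).

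Etv4 and Etv5 lay close to vehicle with PTH and below it with YKL-05-093. Both are transcriptional activators that bind ETS motifs. Etv5 (ENSMUSG00000013089; chromosome 16, 22381309 to 22439719, minus strand) was at 2.40 and 2.41 RPKM in vehicle, 2.54 and 2.31 with PTH, and 0.679 and 0.656 with YKL-05-093. The PTH libraries lie on either side of vehicle, and the YKL-05-093 libraries lie well below both. With PTH the log2 fold change was 0.01 (95% interval -0.36 to 0.38, limma adjusted p = 0.988), and with YKL-05-093 it was -1.71 (SE 0.17). PTH stood 1.72 (SE 0.13) above YKL-05-093, with an adjusted p of 2.66e-07 in limma. Without either PTH library the difference was 1.65 or 1.78. The call was then lost, as it was for every gene in this comparison.

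Etv4 (ENSMUSG00000017724; chromosome 11, 101769742 to 101785371, minus strand) was at 4.01 and 4.84 RPKM in vehicle, 4.52 and 4.52 with PTH, and 2.74 and 2.64 with YKL-05-093. The PTH libraries again fall between the vehicle libraries. The log2 fold change was 0.04 with PTH (95% interval -0.36 to 0.43, limma adjusted p = 0.96) and -0.69 with YKL-05-093 (SE 0.17). PTH stood 0.73 (SE 0.11) above YKL-05-093 (limma, adjusted p = 0.000212), under 2-fold. Of the ETV sum, Etv4 made up 61.4% and 66.3% in vehicle, 63.8% and 65.9% with PTH, and 79.7% and 79.2% with YKL-05-093.

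Etv1 (ENSMUSG00000004151; chromosome 12, 38779380 to 38870484, plus strand) was near the limit of detection, with 11 and 8 reads in vehicle, 2 and 3 with PTH, and 2 and 4 with YKL-05-093. These are 0.119 and 0.0542 RPKM, 0.0175 and 0.0298 RPKM, and 0.0187 and 0.0365 RPKM. Per library total, its summed reads with PTH were 0.294 of vehicle (exact 95% interval 0.0859 to 0.815) and with YKL-05-093 0.350 (0.114 to 0.912), counting error only. The ETV sum was 6.92 ± 0.546 RPKM in vehicle, 6.97 ± 0.155 with PTH and 3.38 ± 0.0732 with YKL-05-093.

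Other genes that ERK induces were read beside the family, from a list of 21 of which 20 passed the filter. With PTH, 1 of the 20 was called higher (1.09% of all genes) and 2 lower (0.813%). With YKL-05-093, 1 was called higher (0.393%) and 3 lower (0.274%), and 7 were called higher with PTH than with YKL-05-093 (0.737%). The median log2 fold changes of the list were -0.10, -0.86 and 0.69, beside -0.11, -1.10 and 0.78 for the Sprouty, SPRED and ETV genes. Of the 20, 11 were below 0 with PTH and 17 with YKL-05-093.

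Dusp6, a phosphatase that inactivates ERK, was at 8.86 and 9.25 RPKM in vehicle, 7.46 and 8.84 with PTH, and 1.04 and 1.23 with YKL-05-093, so that its PTH libraries were close to vehicle as for Etv5. Egr2 and Egr1, zinc finger factors of the immediate early response, lay in between with PTH as for Spry4. Egr2 was at 7.10 and 8.65 RPKM, then 3.38 and 3.86, then 1.02 and 1.49, and with PTH it fell by 1.09 on the log2 scale (limma, adjusted p = 0.0259). Egr1 was at 6.78 and 6.08 RPKM, then 3.12 and 4.40, then 0.873 and 1.55, and its log2 fold change of -0.78 with PTH missed the threshold (limma, adjusted p = 0.132).

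Dusp7, another ERK phosphatase, was at 11.8 and 11.2 RPKM in vehicle, 4.68 and 5.11 with PTH, and 5.56 and 6.01 with YKL-05-093. With PTH it fell by 1.22 on the log2 scale (limma, adjusted p = 0.0111). Fos, a subunit of AP-1, went the other way, from 2.60 and 3.26 RPKM to 12.5 and 9.96 with PTH and 7.96 and 9.26 with YKL-05-093. Its log2 fold change was 1.90 with PTH (limma, adjusted p = 0.00456) and 1.53 (SE 0.19) with YKL-05-093. Dusp4, Fosl1 and Epha2, which encode a phosphatase, an AP-1 subunit and an ephrin receptor, were called higher with PTH than with YKL-05-093, by 1.53, 1.49 and 1.32 on the log2 scale (limma, adjusted p = 0.00011, 3.22e-06 and 3.86e-07). These calls for PTH, and for PTH against YKL-05-093, were each lost without either PTH library, and all kept their direction. Without either PTH library the direct comparison called no gene at all. The call of Egr2 for PTH was also lost without vehicle library 2, and that of Egr1 in the direct comparison without YKL-05-093 library 1. Of the calls for YKL-05-093, that of Fos was lost in every leave-out except the one without vehicle library 2. That of Egr1 was lost without vehicle library 1 or YKL-05-093 library 1, and that of Egr2 without vehicle library 1. Dusp6 kept its call in each leave-out, and all of these kept their direction.

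**Figure D4:**
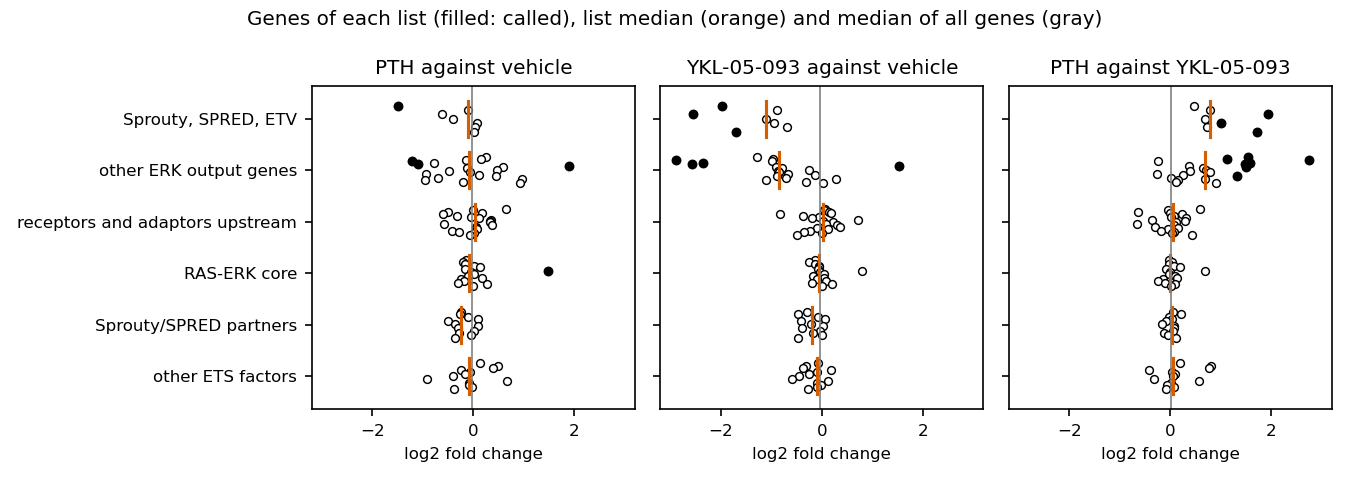
Log2 fold changes of the genes tested in each list for the 3 comparisons; filled points are called, orange lines are list medians and the gray line is the median of all genes. With YKL-05-093 the medians of the Sprouty, SPRED and ETV genes (-1.10) and of the other ERK output genes (-0.86) lie well to the left of all genes (-0.04), and the medians of the 4 other lists lie between -0.19 and 0.03.

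Genes upstream of these families, or acting with them, were read by the same test, by which 1.91% of all genes were called for PTH, 0.666% for YKL-05-093 and 1.21% in the direct comparison. An unadjusted p under 0.05 was reached by 1897 of 14261 genes for PTH, 1236 of 14255 for YKL-05-093 and 3178 of 14255 in the direct comparison. Of 22 receptors and adaptors, 20 were tested and 0 were called by limma in any comparison, with 4, 2 and 11 at an unadjusted p under 0.05 for PTH, YKL-05-093 and the direct comparison, and 0 called by voom. Of 16 RAS-ERK core genes, all tested, 1 was called. Ksr1, a scaffold that holds RAF, MEK and ERK together, was at 3.00 and 1.98 RPKM in vehicle, 7.28 and 6.72 with PTH, and 4.11 and 4.46 with YKL-05-093. It rose with PTH by 1.48 on the log2 scale (limma, adjusted p = 0.0179), and voom called it too, but the call was lost without either PTH library.

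Of 12 partners of Sprouty and SPRED proteins, such as neurofibromin, 0 were called by limma, with 2, 2 and 1 at an unadjusted p under 0.05, and 0 by voom. Of 17 other ETS factors, 13 were tested and 0 called by limma, with 3, 1 and 6 at an unadjusted p under 0.05, and 0 by voom. Of these, Erf and Etv6 passed the adjusted p without reaching a 2-fold change and were chosen here after their values were seen. Erf, a repressor that ERK inactivates, had a log2 fold change of -0.93 with PTH (limma, adjusted p = 0.0309). Etv6 was 0.80 higher with PTH than with YKL-05-093 (limma, adjusted p = 4.67e-05).

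The genes most like each called member were found by the smallest root mean square difference between profiles of log2(RPKM + 0.1), centred on their means, over 6 libraries and 11878 genes with at least 50 reads on average. For Spry1 these were Rasl11a (0.175), a RAS-like GTPase, Id3 (0.230), an inhibitor of basic helix-loop-helix factors, and Fjx1 (0.235). Rasl11a was at 14.5 and 18.4 RPKM in vehicle, 6.89 and 4.77 with PTH, and 4.96 and 5.07 with YKL-05-093. For Spry4 they were Atoh8 (0.238), a basic helix-loop-helix factor, Id1 (0.299) and Egr2 (0.344). Atoh8 was at 7.07 and 6.59 RPKM in vehicle, 4.78 and 5.33 with PTH, and 1.59 and 1.39 with YKL-05-093.

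For Spred2 the nearest profiles were those of Dusp5 (0.184), a nuclear ERK phosphatase, Gcnt2 (0.206) and Plk3 (0.210). Dusp5 was at 2.31 and 2.47 RPKM in vehicle, 2.76 and 2.59 with PTH, and 1.32 and 1.05 with YKL-05-093. For Etv5 they were Prkg2 (0.161), a cGMP-dependent kinase, Csf1 (0.192), the growth factor of macrophages and osteoclast precursors, and Hmga2 (0.200), a chromatin protein. Csf1 was at 20.3 and 17.9 RPKM in vehicle, 17.3 and 16.9 with PTH, and 6.65 and 7.24 with YKL-05-093. As they were picked to match, the neighbours of Spry1 were below vehicle with PTH and those of Etv5 close to it.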

How the data were processed

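RNA from Ocy454 cells was depleted of ribosomal RNA and sequenced as directional libraries. The authors aligned reads with STAR to mm10, counted them per gene with HTSeq v0.6.0 on Ensembl 75, and deposited RPKM values on a linear scale for 6 libraries, without further scaling between them. The submitters' processing notes also name CASAVA 1.7. Whether counting used strand is not stated. RPKM values are not counts, so they were tested on a log2 scale.

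Log2(RPKM + 0.1) was tested with limma 3.58.1 in R 4.3.3, in a separate fit for each comparison (4 libraries), for genes that reached 0.5 RPKM in 2 or more of the 6 libraries, with the prior variance trended on mean log2 recovered reads and Benjamini-Hochberg adjustment over all genes tested (14261, 14255 and 14255). Genes without a read in the libraries compared were left out. Reads behind each RPKM were recovered as the whole numbers that fit all 6 values of a gene (26214 genes, within 1e-06 of the value) and add up to 99.7% of each library. The search was built to give whole numbers, so this does not check itself. Recovered lengths equal the merged exons of GENCODE M21 (end minus start of each, summed) for 36.0% of genes. Intervals on reads and the floor of 3 reads cover counting error only. The smallest exact two-sided permutation p for 2 against 2 libraries is 0.333, so no such test was used. The fits and the recovery were tested on simulated data.

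The members, the gene lists, the tests and the settings were chosen with earlier results of these data known. Genes outside the family were named by rule: from each list those called in any comparison, at most 8 by size of change, and for each called member the 3 genes with the nearest profiles. Erf and Etv6, and the marker genes given with values, were named after their values were seen. Positions are from GENCODE M21 on GRCm38. Alternatives were other pseudocounts, filters, variance trends, scalings, voom on recovered reads, 1 fit of all libraries, a replicate block and leaving out each library. Tables of single libraries repeat these values (6 of 6) and were not used.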

Additional observations from a re-analysis of the deposited data

How the results depend on the processing

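Of the 308 alternative values for single members, 267 kept direction and call, 31 lost a call, 7 gained 1 and 3 changed sign. The 3 were log2 fold changes near 0 with PTH, which over the leave-outs ran from -0.11 (without vehicle replicate 2) to 0.24 for Spred2, from -0.10 (without vehicle replicate 1) to 0.17 for Etv4, and from -0.054 (without PTH replicate 1) to 0.077 for Etv5. The number of genes called moved more. For PTH against vehicle it was 272, and 0 with no filter on low values (2343 at an unadjusted p under 0.05 in limma, and 275 called by voom), 160 with the trend on the mean value, and 14 to 669 when 1 library was left out. For YKL-05-093 against vehicle it was 95, and 55 with a pseudocount of 1, 0 with no filter (1734 at an unadjusted p under 0.05, and 94 by voom), 57 with a filter at 0.1 RPKM, 173 in 1 fit of all 6 libraries, 6 with the trend on the mean value, and 11 to 321 when 1 library was left out. For PTH against YKL-05-093 it was 172, and 98 with a pseudocount of 1, 102 in 1 fit of all 6 libraries, 1421 by adjusted p alone, and 0 to 155 when 1 library was left out, with 0 without either PTH library (2130 and 2022 at an unadjusted p under 0.05).

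The number of members called was 1 for PTH, 1 by voom with the filter, and 0 with no filter (2 at an unadjusted p under 0.05 in limma). The 1 call was lost without either PTH library. It was 3 for YKL-05-093, and 0 with no filter or with the trend on the mean value (7 at an unadjusted p under 0.05 in each, 3 by voom), and 0 to 4 when 1 library was left out, with 0 without vehicle replicate 1 and 1 without YKL-05-093 replicate 1. It was 3 for PTH against YKL-05-093, and 1 with a pseudocount of 1, with no filter or with the trend on the mean value, 6 by adjusted p alone, and 0 to 3 when 1 library was left out. The cause was not tested. The leave-outs also hold fewer libraries, and in them a lone library is assumed to vary like the other group.

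Gene by gene, same-numbered libraries did not deviate together (r = -0.106 for vehicle and PTH, -0.179 for vehicle and YKL-05-093, -0.0577 for PTH and YKL-05-093, over 11885 genes), so the replicate numbers were not taken as a pairing. Replicate 2 did have the higher mitochondrial share in each group (15% against 11.65% in vehicle, 16.54% against 13.74% with PTH, 15.86% against 13.18% with YKL-05-093). It also had fewer genes above 0 in each group. With the replicate block, 440 genes were called for PTH, 215 for YKL-05-093 and 196 for PTH against YKL-05-093. With the pairing crossed, an alternative chosen after seeing the data, 451 and 233 were called for PTH and YKL-05-093. Depth limits Etv1, Spred3 and, after YKL-05-093, Spry4, which rest on few reads.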
